A study of Mus musculus with 6 samples.

Results

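Remote intergenic H3K56ac peaks are peaks of acetylated lysine 56 of histone H3 that lay more than 50 kb from the nearest transcription start site (TSS) of a protein-coding gene and outside every protein-coding gene body. They were chosen by measured values, namely the width and position of the peaks in 1 merged set. The width had to be under 3 kb, with a lower limit set 2 bp below the narrowest member of 323 bp, and the midpoint had to be more than 1 kb from the start of any transcript of another gene type in GENCODE M21. Of 11106 peaks, 308 (2.77%) met these limits and are called members here. Of the 9350 peaks in this width range, 2718 lay outside coding bodies and 382 of those lay beyond 50 kb, and 74 of the 382 were left out because another transcript began within 1 kb. The peaks came from V6.5 mouse embryonic stem cells (mESCs), kept undifferentiated on feeder cells in medium with leukaemia inhibitory factor (LIF). All cells were infected with lentivirus, which delivered either a scrambled hairpin (Scramble) or one that targets *Sirt6* (*Sirt6* KD), and each group had 2 H3K56ac ChIP libraries and 1 input library. The deposited positions pooled all libraries, so Scramble and *Sirt6* KD cells cannot be told apart here. No peak has a height, and read depth is not known from the file. The study's reporting form lists reads for each library, and more enriched peaks in each *Sirt6* KD library than in each Scramble library. These values cannot be assigned to single peaks of the merged set. No source used here says whether lentivirus-infected cells were cloned, and feeder chromatin in the preparations cannot be separated by position.

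Acetylation of lysine 56, in the globular core of histone H3, loosens the contact of DNA with the nucleosome and marks promoters and enhancers of active genes in mammalian cells. Enhancers are stretches of DNA that bind transcription factors and raise the transcription of a gene on the same chromosome, at times across very long distances and past other genes. Gene deserts are long stretches without protein-coding genes. Some hold enhancers of developmental genes, while others are largely made of sequence derived from transposons. SIRT6, the deacetylase targeted by the shRNA, removes this mark.

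The sequences of 3 members show what such regions look like, with every match to 1 of the 8 motifs searched in capitals. The *Il6st* member was chosen after its values were seen because *Il6st* encodes gp130, the signalling subunit shared by receptors of LIF, and because the stretch held a STAT and an AP-1 match. STAT3 is the transcription factor activated by LIF. The *Med13l* member was likewise chosen afterwards, as the member of the largest cluster with most motifs, and it held an AP-1 and a KLF match. The *Kif2a* member was 1 of 5 picked for their number of different motifs among 5 of pluripotency factors, the octamer, ESRRB, KLF, SOX2 and STAT3. In the central 400 bp, 40 members held 1 of these, the *Kif2a* member among them with its octamer, and 1 other member held 2. The *Kif2a* member also carried a TEAD and an AP-1 match, which did not count in this choice. The AP-1 letters searched allowed any central base, which is G in the *Il6st*, A in the *Med13l* and T in the *Kif2a* member. Letters are from the RefSeq copy of GRCm38, the assembly of mm10.
*Il6st* member (chr13:112413340-112413509, plus strand): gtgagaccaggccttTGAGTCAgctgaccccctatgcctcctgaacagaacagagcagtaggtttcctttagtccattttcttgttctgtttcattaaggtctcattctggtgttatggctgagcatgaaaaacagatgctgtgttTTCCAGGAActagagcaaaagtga
*Med13l* member (chr5:118482656-118482931, plus strand): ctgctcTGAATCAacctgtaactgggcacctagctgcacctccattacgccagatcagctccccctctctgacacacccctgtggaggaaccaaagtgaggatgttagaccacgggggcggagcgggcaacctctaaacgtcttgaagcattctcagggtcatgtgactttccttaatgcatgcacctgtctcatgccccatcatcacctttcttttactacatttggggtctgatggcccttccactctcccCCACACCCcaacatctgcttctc
*Kif2a* member (chr13:107328918-107329057, plus strand): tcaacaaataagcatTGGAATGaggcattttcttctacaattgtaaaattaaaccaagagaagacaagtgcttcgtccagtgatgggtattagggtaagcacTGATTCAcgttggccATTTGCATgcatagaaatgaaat

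Members were mostly short. Their median width was 674.5 bp, with quartiles of 526.8 and 931.8 bp and extremes of 323 and 2845 bp, and 66 (21.4%) reached 1 kb. Together they covered 262.7 kb. The widest member lay 65.2 kb from *Reep3*, which encodes an endoplasmic reticulum protein. Other wide members were 2836 bp near *Hspa9*, a mitochondrial chaperone, 2703 bp near *Snx16*, a sorting nexin, and 2601 bp near *Lingo1*, a neuronal membrane protein. Several wide peaks at genes known in stem cells were left out by the width limit. Another 194 peaks that met the position limits were narrower than the limit, and 20 were 3 kb or wider. Among those 20 were 2 near *Med13l*, 1 near *Klf4* (7585 bp) and 1 near *Sox2* (6289 bp), which overlapped the *Sox2* control region curated in RefSeq. No member lay within 500 kb of *Sox2*.

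The distance from the midpoint to the nearest coding TSS had a median of 91.0 kb, quartiles of 66.8 and 147 kb and a maximum of 1504 kb. On the inner side of the limit, the closest members lay 50072 bp from *Csnk1a1*, 50462 bp from *Klf9*, 50531 bp from *Nap1l1*, 50550 bp from *Il6st* and 50628 bp from *Ssbp3*. On the outer side, the nearest peaks left out lay 49943 bp from *Brd1*, 49863 bp from *Epb41l4a*, 49795 bp from *Gdap1*, 49650 bp from *Rbx1* and 49440 bp from *Hnrnpa3*. Of the members, 169 lay upstream and 139 downstream of the nearest TSS (54.9% upstream, Wilson 95% confidence interval 49.3 to 60.3%). The rule left out coding gene bodies, which lie downstream of their own TSS, so an even split is not the reference for this share. The upstream share of all sequence open to members was not measured.

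Counts were set against the sequence in which a member could lie, that is, all sequenced bases that satisfied the position limits. This eligible sequence was 1029 Mb, or 37.8% of the assembled chromosomes, and held 0.299 members per Mb (exact Poisson 95% interval 0.267 to 0.335). The density was lower farther from the TSS. Between 50 and 100 kb it was 0.818 per Mb (0.701 to 0.949, 174 members), and between 100 and 200 kb it was 0.337 per Mb (0.268 to 0.419, 82 members). Between 200 and 500 kb it was 0.106 per Mb (0.0738 to 0.147, 35 members), and beyond 500 kb 0.0699 per Mb (0.0407 to 0.112, 17 members). The innermost bin held 56.5% of members in 20.7% of the eligible sequence. All these intervals cover counting error only and treat peaks as independent, which neighbouring peaks are not. Eligible sequence was not limited to places where reads align singly, and the part of this in the densities was not tested.

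Gene deserts held few members for their size. A gap here is the stretch between neighbouring coding gene bodies, and a gap with 500 kb or more of sequenced bases is called a desert. Deserts made up 72.4% of the eligible sequence and held 100 members (32.5%), a density of 0.134 per Mb (0.109 to 0.163), against 0.732 per Mb (0.636 to 0.839) for the 208 members in shorter gaps. The ratio of the densities was 0.183 (0.143 to 0.234). Density was 0.991 per Mb (0.821 to 1.19) in gaps under 250 kb, 0.546 per Mb (0.439 to 0.671) in gaps of 250 to 500 kb, and 0.0823 per Mb (0.048 to 0.132) in gaps of 2 Mb or more. The difference was also present at matched distance. Among bases 50 to 100 kb from a TSS deserts held 0.369 members per Mb (0.234 to 0.553) and shorter gaps 1 per Mb (0.851 to 1.18). At 100 to 200 kb the values were 0.226 (0.153 to 0.323) and 0.470 (0.351 to 0.616).

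**Figure D1:**
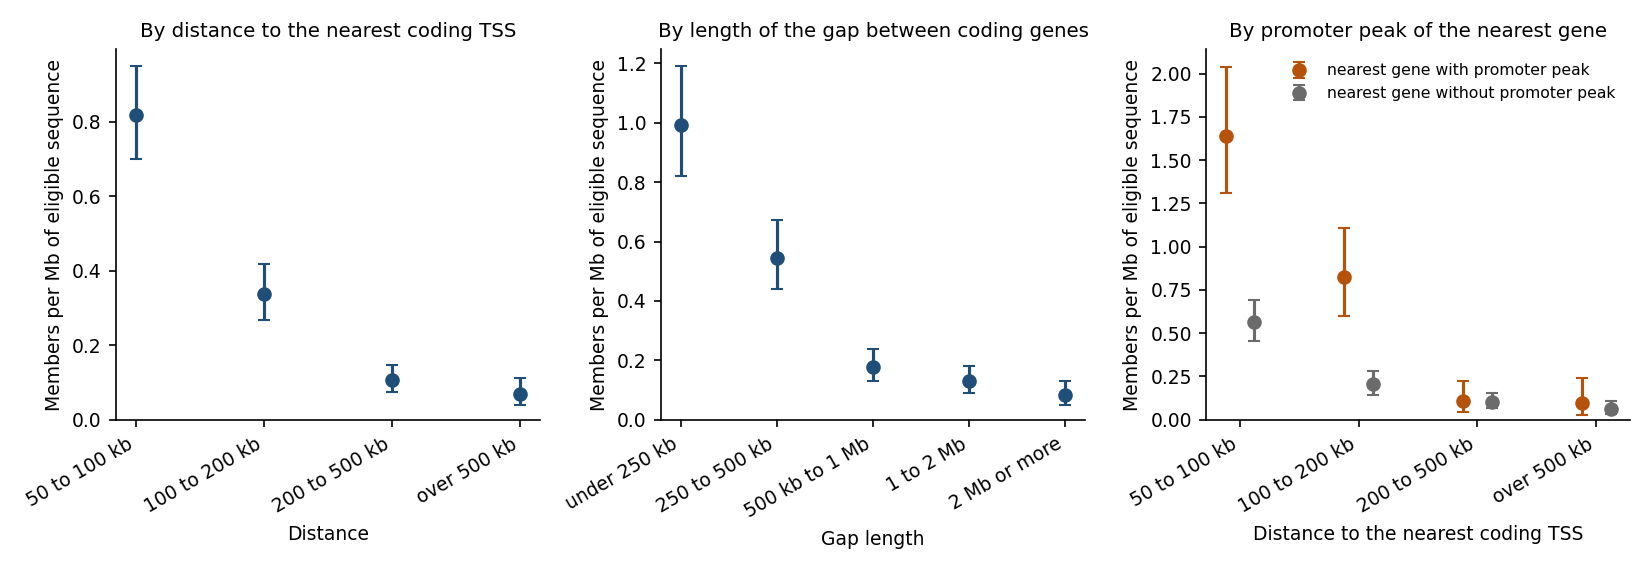
Members per Mb of eligible sequence by distance to the nearest coding TSS (left), by length of the gap between coding genes (middle) and by distance for nearest genes with or without a promoter peak (right). Points are densities and bars exact Poisson 95% intervals. Density fell from 0.818 to 0.0699 per Mb with distance and from 0.991 to 0.0823 per Mb with gap length, and the right panel separates the classes of genes only up to 200 kb.

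Of 722 deserts with eligible sequence, 77 (10.7%) held a member, and of 3443 gaps of any length 228 (6.62%) did. Among the 10 longest gaps, 7 held none, and the longest, 4668 kb between *Tenm3*, a teneurin of neuronal wiring, and *Aga*, a lysosomal enzyme, held 1. The 4283 kb gap between *Cntnap5b*, a neuronal adhesion gene, and *Cdh20*, a cadherin, held the member farthest from any coding TSS. That member was 734 bp wide, 58.3% repeat-masked and 616 kb from the next peak of any kind, yet only 2.58 kb from the start of a transcript of another gene type. The next farthest lay 939 kb from *Dsc3*, a desmosomal cadherin, 838 kb from *Hs3st1*, a heparan sulphate sulphotransferase, 785 kb from *Epha5*, an ephrin receptor, and 773 kb from *Snx16*. The remaining 5 of the 10 farthest lay 558 to 756 kb from *Sorcs3*, *Chordc1*, *Rpia*, *Manea* and *Efna5*. Of these 10 members, 7 were at least 50% repeat-masked.

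Members were found on every autosome. The autosomes together had 0.343 members per Mb (0.306 to 0.384, 303 members). The X chromosome had 5 members in 77.4 Mb of eligible sequence, 0.0646 per Mb (0.021 to 0.151), which was 0.188 times the autosomal density (0.0606 to 0.444). The Y chromosome had none in 69.2 Mb, which allows up to 0.0533 per Mb. Much of its sequence occurs in several copies, and reads were kept only where they aligned to a single place, but the part of this in the count was not tested. Chromosome 13 had the highest value, 0.625 per Mb (0.422 to 0.893, 30 members), and its interval lay above the autosomal density. This interval was not adjusted for picking the highest chromosome and treats peaks as independent, although 6 of the 30 members lay in 1 gap, between *Enc1* and *Gm10260*. Chromosome 3 had the lowest autosomal value, 0.165 per Mb (0.0854 to 0.289, 12 members).

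**Figure D2:**
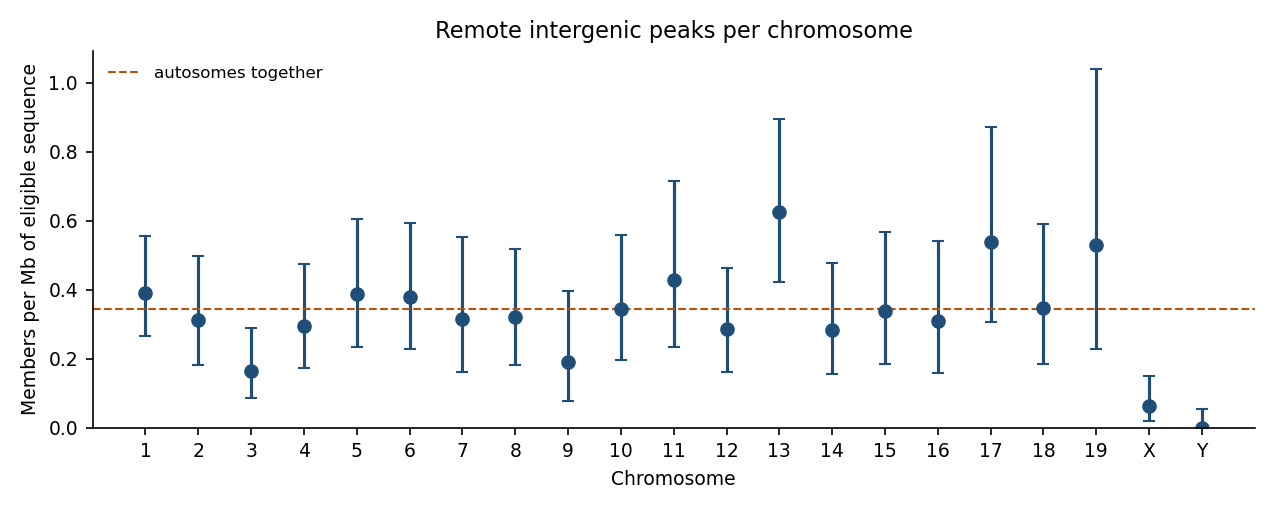
Members per Mb of eligible sequence on each chromosome, with exact Poisson 95% intervals as bars and the density over all autosomes, 0.343 per Mb, as a dashed line. Chromosome 13 lies above the line, and X (0.0646 per Mb) and Y (no member) lie below every autosome.

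Flanking genes were sorted by whether they had a promoter peak, meaning a peak midpoint within 1 kb of 1 of their TSS. The gene with the nearest TSS had a promoter peak for 136 members (44.2%, 38.7 to 49.7%), while 33.9% of all coding genes had one. The share was 56.1% (52.8 to 59.3%) for near intergenic peaks, which lay 3 to 50 kb from a coding TSS under otherwise the same limits. It was 47.8% (37.8 to 58.0%) for remote intronic peaks, which lay beyond 50 kb inside introns. Members had the lowest value of these classes, but their interval lay within that of remote intronic peaks, and the shares were not tested. Eligible sequence whose nearest gene had a promoter peak held 0.654 members per Mb (0.549 to 0.773), against 0.209 per Mb (0.179 to 0.243) where it had none. This difference was present at 50 to 100 kb, with 1.64 (1.31 to 2.04) against 0.565 per Mb (0.456 to 0.693), and at 100 to 200 kb, with 0.827 (0.598 to 1.11) against 0.204 per Mb (0.145 to 0.279). At 200 to 500 kb the densities were 0.109 (0.0439 to 0.225) and 0.105 per Mb (0.0698 to 0.152), and no difference was detectable with 35 members. For 187 members (60.7%) at least 1 of the genes bounding the gap had a promoter peak, for 56 (18.2%) both had, and for 121 (39.3%) neither had. Genes were named by position, and no contact between a member and a promoter was measured.

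The 308 members had 237 different nearest genes, of which 186 were nearest to 1 member, 37 to 2, 9 to 3, 4 to 4 and 1 to 5. *Med13l*, a subunit of the Mediator kinase module, was nearest to 5 members. *Rybp*, a Polycomb complex protein, *Enc1*, an actin-binding kelch protein of the nervous system, *Serp2*, a stress-associated endoplasmic reticulum protein, and *Arid2*, a subunit of the PBAF chromatin remodelling complex, were each nearest to 4. Of these 5 genes, *Med13l* and *Rybp* had a promoter peak.

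Members lay singly or in small groups. When members with midpoints at most 50 kb apart were joined, 212 stayed single and 96 (31.2%) formed 40 clusters, 29 of 2, 7 of 3, 3 of 4 and 1 of 5 members. The distance to the nearest other peak of any kind had a median of 63.1 kb and ranged from 1.81 to 1595 kb. A distal peak, more than 3 kb from every coding TSS, lay within 1/4 of the 50 kb joining distance of 86 members (27.9%), of 293 of 906 near intergenic peaks (32.3%) and of 16 of 90 remote intronic peaks (17.8%). The difference to near intergenic peaks was −4.42 points (Newcombe 95% interval −10.1 to 1.62, exact test, adjusted p = 0.362), and that to remote intronic peaks was 10.1 points (−0.163 to 18.5, adjusted p = 0.171). These p-values are from two-sided Fisher's exact tests, adjusted over 28 tests by the Benjamini-Hochberg method, here and below. With the full 50 kb, 137 members (44.5%) had a neighbour, a difference to near intergenic peaks of −11.0 points (exact test, adjusted p = 0.00879). For the 134 members over 100 kb from a TSS, the difference at the shorter distance was −15.9 points (exact test, adjusted p = 0.00133).

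The cluster of 5 lay in the 295 kb gap between *2410131K14Rik* and *Med13l*, which held 6 members in all. It spanned 33.9 kb, chr5:118449253-118483133 on mm10, 77.8 to 111 kb upstream of *Med13l*. Its members were 1154, 583, 433, 686 and 556 bp wide. The member farthest from the gene had 41.7% GC and was 49.2% repeat-masked, and the other 4 had 46.7 to 52.9% GC and were 0 to 24.6% masked. It lay within a region, chr5:118432886-118452483, that RefSeq lists from CRISPR interference experiments as a positive regulator of *Med13l* in mouse ES cells. The peaks of 3372 and 3625 bp excluded for their width lay in the same region and overlapped fragments that RefSeq lists as active in ES cell reporter assays. The effect on *Med13l* is listed as moderate for the whole region and as weak for the part that held the member farthest from the gene. The member printed above was the innermost of the 5. AP-1 matches lay in the central 400 bp of 3 of the 5.

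The 507 kb gap between *Enc1* and *Gm10260* also held 6 members, of which 4 formed a cluster. These 4 spanned 97.4 kb and were 589 to 830 bp wide. Of them, 3 lay inside *Lncenc1*, a long noncoding RNA gene expressed in embryonic stem cells, and 1 of these held a STAT and another an octamer match. The *Serp2* cluster spanned 44.4 kb, 59.4 to 103 kb upstream, and its 4 members were 635 to 1222 bp wide and no more than 13.7% masked. The *Arid2* cluster spanned 39.0 kb, 69.0 to 107 kb upstream, and all 4 of its members, 399 to 1010 bp wide, lay inside the noncoding gene *2610037D02Rik*. The *Mycn* cluster of 3 members spanned 19.8 kb, 136 to 156 kb from the nearest TSS and downstream of this gene of the MYC family. The other clusters of 3 were those near *Fam13c*, near *Irf2bpl* and *Lrrc74a*, near *Dlx2* and *Itga6*, near *Akr1d1*, near *Rybp* and near *Irs2*. Among clusters of 3 or more members, the *Fam13c* cluster had the largest summed width of members, 5462 bp in 21.8 kb. Other peaks were not counted in this sum. The span of the *Enc1* cluster also held a peak of 5361 bp that was not a member.

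**Figure D3:**
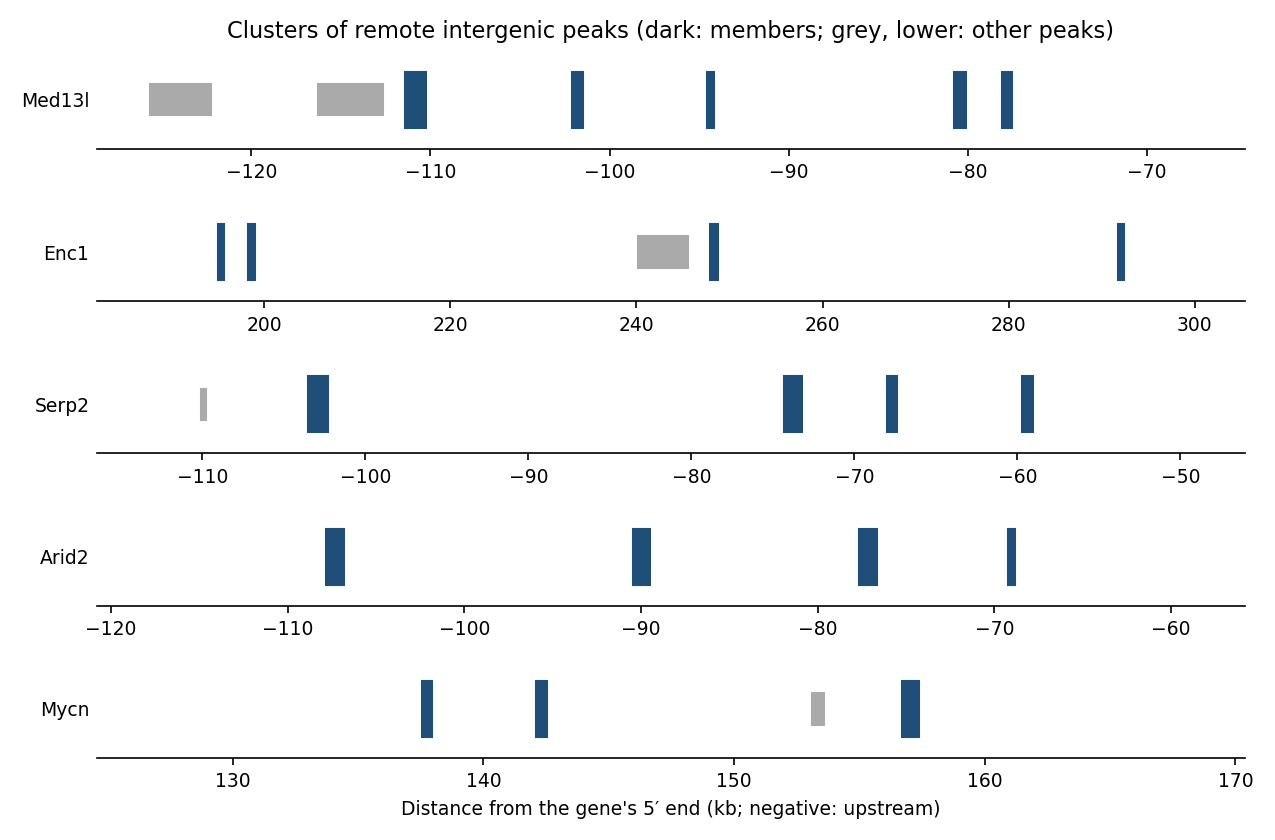
The 4 clusters of 4 or more members and the *Mycn* cluster, drawn to scale in kb from the 5′ end of the gene with negative values upstream; each row has its own axis. Tall dark blocks are members and lower grey blocks are other peaks. The *Med13l* row shows 5 members within 33.9 kb beside the peaks of 3372 and 3625 bp.

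Besides the *Med13l* member, 1 more member overlapped an element curated in RefSeq. It was 1556 bp wide, at chr12:86823428-86824983, 60.6 kb from *Irf2bpl*, a ubiquitin ligase gene, and it overlapped a VISTA enhancer listed as active in the hindbrain and midbrain of the mouse embryo. Of 211 listed enhancers in eligible sequence, 9 were overlapped by a peak of any kind and 1 of these 9 by a member. Only overlap of positions was compared.

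The flanking genes included members of a pluripotency list, which holds transcription factors that keep stem cells undifferentiated and parts of the LIF pathway. Of the 25 genes of this list that bounded a gap with eligible sequence, 8 (32.0%) bounded a gap with a member, against 8.30% of all 5336 bounding coding genes. Gaps bounded by the list held 16 members in 16.0 Mb, or 1 per Mb (0.572 to 1.62), against 0.299 per Mb over all eligible sequence. This interval also holds the 0.654 per Mb of sequence whose nearest gene had a promoter peak and the 0.732 per Mb of gaps under 500 kb. The list itself was not tested, since it was chosen with results of these peaks known, and a promoter peak was present at 72.0% of its 50 genes.

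By nearest TSS, 13 members belonged to 8 genes of the pluripotency list. *Mycn* had 3. *Klf5*, a zinc finger factor of the naive state, had 2 at 55.6 and 237 kb, and *Klf4*, a factor of the same family used in reprogramming, had 1 at 68.2 kb. *Myc* had 2 at 84.2 and 105 kb, both inside the long noncoding RNA gene *Pvt1*. *Nr5a2*, a nuclear receptor that binds the *Pou5f1* locus, had 2 at 217 and 416 kb. *Sall1*, a zinc finger factor, had 1 at 94.2 kb that was 2476 bp wide. *Tbx3*, a T-box factor, had 1 at 81.3 kb, and *Il6st* had the member shown above, 50.5 kb upstream. *Klf5* and *Tbx3* lacked a promoter peak and the other 6 had one.

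Lists of differentiated cells gave other values. Transcription factors of the germ layers were nearest to 7 members, of which 2 lay near *Sox1*, a neural factor, at 82.1 and 84.4 kb, and 1 each near *Irx5*, *Meis2*, *Sox11*, *Tfap2a* and *Tfap2c*. None of these 6 genes had a promoter peak. Gaps bounded by this list held 0.208 members per Mb (0.0996 to 0.382). Neural adhesion genes, which border many of the longest deserts, bounded 12.1% of the eligible sequence but 2.27% of members, or 0.0562 per Mb (0.0226 to 0.116), and were nearest to 2 members, those of *Cntnap5b* and *Epha5*. Fibroblast genes were nearest to no member and bounded a gap with 1 member. Their gaps held 0.283 members per Mb (0.00717 to 1.58), an interval that holds the 0.299 per Mb over all eligible sequence. A promoter peak was present at 4.26% of the germ layer, 4.69% of the neural adhesion and 0% of the fibroblast genes. Sequence whose nearest gene had no promoter peak held 0.209 members per Mb, and the part of this in the list densities was not tested. By share of bounding genes the contrast was smaller. A gap with a member was bounded by 10 of 76 germ layer factors (13.2%) and 7 of 60 neural adhesion genes (11.7%). Both shares were above the 8.30% of all bounding coding genes, while the fibroblast share was 5.88% (1 of 17).

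Some members lay in bodies of noncoding genes. The midpoint was inside such a body for 51 members (16.6%, 12.8 to 21.1%), against 2 of 90 remote intronic peaks (2.22%), a difference of 14.3 points (7.67 to 19.2, exact test, adjusted p = 0.00199). The share in near intergenic peaks was 11.7% (difference 4.86 points, 0.496 to 9.81, exact test, adjusted p = 0.123), and such bodies covered 10.3% of the eligible sequence. The limit of 1 kb from their transcript starts held for all 3 classes. The rule placed members outside and remote intronic peaks inside coding genes, and lincRNA genes are annotated between coding genes, so the contrast with intronic peaks is tied to the selection and nothing particular to members is read from it. The bodies belonged to 48 genes with a median length of 96.7 kb, and lincRNA genes held 42 of the 51 members. Beside *2610037D02Rik*, *Lncenc1* and *Pvt1*, the gene *Gm5535* held 2, and *C230088H06Rik* and *Gm26624* held the same 2, near *Zfp978* and *Zfp988*. Single members lay in *Platr22* near *Zfp281*, in *Gm12510* near *Klf4*, in *Gm41230* near *Klf5* and in *Tbx3os1* near *Tbx3*.

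Base composition was set against that of all eligible sequence, as a description, and local flanks were not measured. The mean GC content of their central 400 bp was 48.0%, against 39.7% over 2558643 tiles of 400 bp cut from the eligible sequence, and 72.4% of members but 21.2% of tiles reached 45%. GC content over the whole peak was at least 45% in 227 members (73.7%, 68.5 to 78.3%) and in 739 of 906 near intergenic peaks (81.6%), a difference of −7.87 points (−13.6 to −2.55, exact test, adjusted p = 0.0384). Leaving out the 31 members and the other peaks of chromosome 1 gave −7.90 points and an adjusted exact p of 0.0545. Remote intronic peaks reached 45% in 61.1%, 12.6 points below members (1.84 to 23.9, exact test, adjusted p = 0.117). The median GC content of members was 48.6% at 50 to 100 kb, 48.0% at 100 to 200 kb, 45.2% at 200 to 500 kb and 41.9% beyond. A CpG ratio over 0.6, the level of CpG islands, was found in 13 members (4.22%), 66 near intergenic peaks (7.28%) and 4 remote intronic peaks (4.44%), and neither difference passed (exact test, adjusted p = 0.171 and 1).

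Repeats took up a small part of most members. The median share of repeat-masked bases was 14.0%, 16 members had none and 7 had over 90%. At least 50% was masked in 32 members (10.4%, 7.46 to 14.3%), in 58 near intergenic peaks (6.40%; difference 3.99 points, 0.554 to 8.15, exact test, adjusted p = 0.117) and in 6 remote intronic peaks (6.67%, adjusted p = 0.758). In the central 400 bp, 11.4% of members but 36.4% of the tiles were masked to this extent. Reads were kept only where they aligned to a single place, while tiles had no such filter. The part of this in the contrast was not tested. The share was highest in the remotest members. It was 7.47% at 50 to 100 kb, 4.88% at 100 to 200 kb, 14.3% at 200 to 500 kb (5 of 35, 6.26 to 29.4%) and 58.8% beyond 500 kb (10 of 17, 36.0 to 78.4%), where the median masked share was 51.1%. With members over 100 kb alone, the difference to near intergenic peaks was 7.78 points (exact test, adjusted p = 0.0288). Without peaks that had 10% or more multi-copy windows, defined below, it was 0.335 points over all distances (exact test, adjusted p = 1), and with a limit of 25% masked it was −7.33 points (exact test, adjusted p = 0.0985).

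Sequence present in several copies was more frequent in members than nearer to genes. A window of 75 bases, the read length given in the study's methods although its reporting form lists a longer one, was counted as multi-copy if it occurred more than once in the genome on either strand. In 20 members (6.49%, 4.24 to 9.82%) at least 10% of windows were multi-copy, against 10 of 906 near intergenic peaks (1.1%, 0.601 to 2.02%), a difference of 5.39 points (2.96 to 8.75, exact test, adjusted p = 4.70e-05). Remote intronic peaks were at 5.56% (5 of 90, exact test, adjusted p = 1). The result rested on the limit, because with any multi-copy window counted, 43 members (14.0%) and 141 near intergenic peaks had one (−1.60 points, exact test, adjusted p = 0.912), and with a limit of 50% of windows the counts were 5 and 2 (adjusted p = 0.0946).

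A set of 6 members on 6 chromosomes shared such windows, and each of the 15 possible pairs had 12 to 67 windows of 75 bases in common. The 6 were 328 to 543 bp wide, 80.7 to 100% repeat-masked and 49.9 to 68.3% GC. Their nearest genes were *Nebl*, *Ctso*, *Tenm2*, *Dsc3*, *Sorcs3* and *4930578C19Rik*, at 140 to 756 kb, and none of these had a promoter peak. They lay in gaps of 588 to 3443 kb and at least 368 kb from any other peak. Their most frequent windows occurred 2375 to 3355 times in the genome. Among all 11106 peaks only 7 held a window shared within this set, these 6 members and 1 remote intronic peak. The window with most copies in the *Sorcs3* member is shown because it makes the sharing visible, with 3355 copies in the genome. Reads were kept only where they aligned to a single place, and the part of this in these peaks was not tested.
*Sorcs3* member, most copied window (chr19:49460425-49460499, plus strand): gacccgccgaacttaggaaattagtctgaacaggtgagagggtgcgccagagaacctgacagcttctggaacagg

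**Figure D4:**
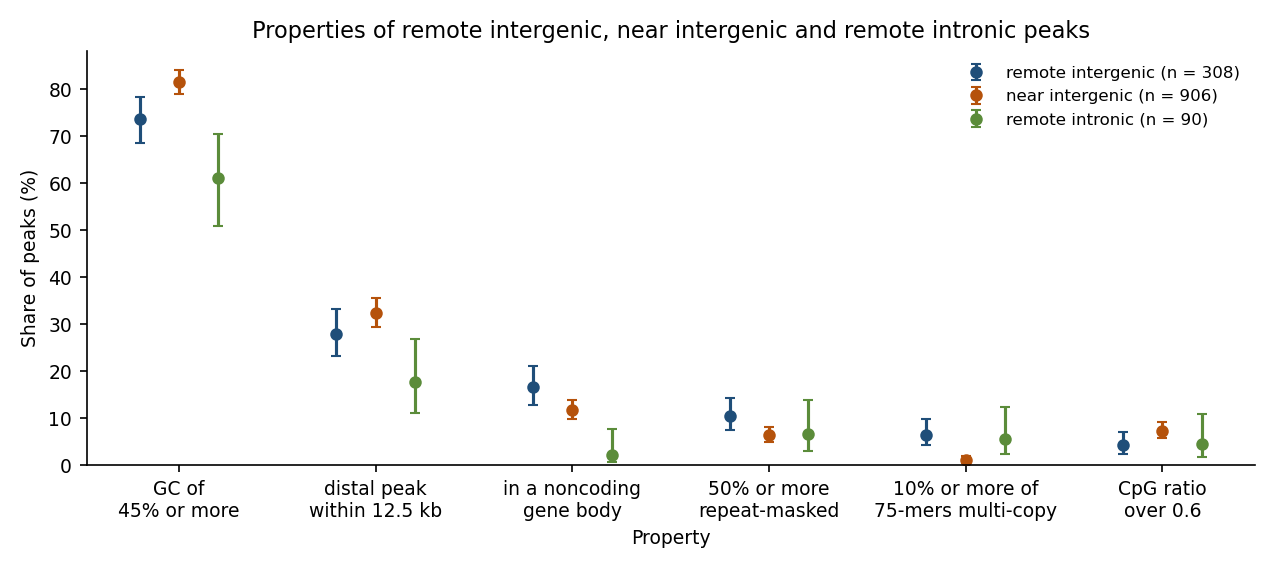
Share of peaks with each of 6 properties in the 308 members, 906 near intergenic and 90 remote intronic peaks, with Wilson 95% intervals as bars. Members lie below near intergenic peaks for GC content (73.7 against 81.6%) and above them for multi-copy windows (6.49 against 1.1%), and above remote intronic peaks for noncoding gene bodies (16.6 against 2.22%), where the rule itself separates these classes.

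Motif matches were sought on both strands in the central 400 bp. The letters were ATTTGCAT for the octamer bound by POU5F1, TCAAGGTCA for ESRRB, GGGTGTGG for KLF factors, CCATTGTT for SOX2 and TTCCNGGAA for STAT3. They were TGANTCA for AP-1, TGGAATG for TEAD factors and CAGGGGGC for the core of CTCF. The AP-1 letters are looser than the usual site, which has C or G at the centre, and matches were not split by this base. At least 1 of the first 5 was present in 41 members (13.3%), 9.52% of tiles and 9.93% of near intergenic peaks. AP-1, the most frequent, was found in 57 members (18.5%, 14.6 to 23.2%) and 11.8% of tiles, and in 14.1% of near intergenic peaks (difference 4.38 points, −0.245 to 9.55, exact test, adjusted p = 0.171). KLF matches were in 14 members (4.55%, 2.73 to 7.48%) and 1.77% of tiles. The octamer was in 5 members (1.62%, 0.695 to 3.74%), below the 4.24% of tiles. Tiles had a lower GC content than members, so windows of 40 to 50% GC, 180 of them in members, were also compared. There KLF matches were in 2.78% of members and 2.58% of tiles, AP-1 in 18.3 and 11.7%, and the octamer in 2.22 and 4.07%. No shares were tested against tiles. None of the 16 comparisons of motifs with the other peak classes passed.

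The STAT motif came closest. It was present in 14 members (4.55%, 2.73 to 7.48%), in 15 of 906 near intergenic peaks (1.66%) and in 0.958% of tiles, a difference between the classes of 2.89 points (0.786 to 5.90, exact test, adjusted p = 0.0558). In windows of 40 to 50% GC the difference was 4.11 points (exact test, adjusted p = 0.0235) and in windows of 1000 bp 4.15 points (adjusted p = 0.0326). With 1 peak per 50-kb cluster it was 1.69 points (exact test, adjusted p = 0.362), and with the looser letters TTCNNNGAA 2.77 points (adjusted p = 0.552). Remote intronic peaks held it in 3 of 90 (3.33%, exact test, adjusted p = 0.990). The 14 members had 14 different nearest genes at 50.6 to 199 kb, and none of their 15 matches lay in repeat-masked sequence. The matches of 4 members, selected after they were seen, are given with 20 bases on either side and the motif in capitals. *Fzd7* encodes a Wnt receptor and *Arl4c* a small GTPase, and the *Arl4c* member held 2 matches.
*Klf5* member (chr14:99354905-99354953, plus strand): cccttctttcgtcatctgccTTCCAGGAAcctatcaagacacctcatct
*Fzd7* member (chr1:59423878-59423926, plus strand): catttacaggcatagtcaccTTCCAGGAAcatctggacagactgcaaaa
*Enc1* member (chr13:97439876-97439924, plus strand): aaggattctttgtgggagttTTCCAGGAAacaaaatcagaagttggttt
*Arl4c* member, first match (chr1:88809184-88809232, plus strand): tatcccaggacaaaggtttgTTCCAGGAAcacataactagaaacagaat
*Arl4c* member, second match (chr1:88809243-88809291, plus strand): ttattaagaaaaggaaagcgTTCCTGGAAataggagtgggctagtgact

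**Figure D5:**
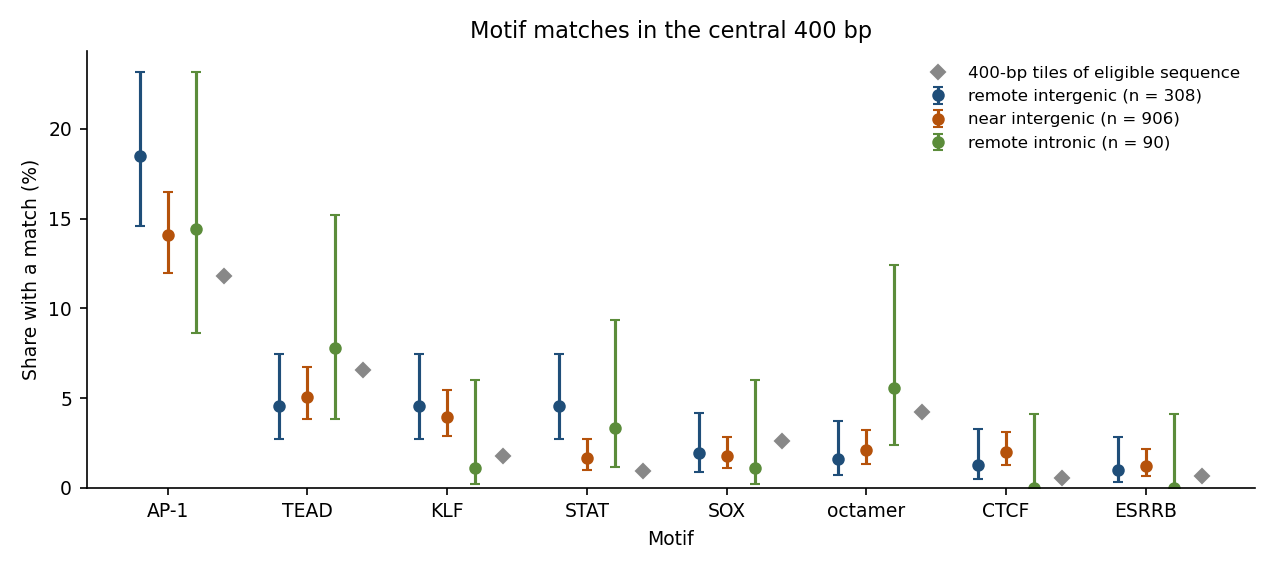
Share of central 400-bp windows with a match to each of 8 motifs in members, near intergenic and remote intronic peaks, with Wilson 95% intervals as bars, and in tiles of the eligible sequence as diamonds. For STAT the members stand at 4.55%, near intergenic peaks at 1.66% and tiles at 0.958%, and for the octamer the members stand at 1.62% and tiles at 4.24%.

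Of the 28 comparisons, 7 had an unadjusted exact p under 0.05 and 3 passed after adjustment, those of GC content and multi-copy windows with near intergenic peaks and of noncoding gene bodies with remote intronic peaks, the last of which is tied to the selection. Peaks of each class came from the same merged set, so these p-values describe peaks and not separate cultures.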

How the data were processed

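H3K56ac ChIP-seq of V6.5 mESCs was represented by 1 merged peak set from 6 libraries, 2 ChIP and 1 input each for Scramble and *Sirt6* KD. According to the methods, the authors trimmed the reads, aligned them to mm10 with bowtie while keeping single-place alignments, removed duplicates and called peaks with MACS2, then left out blacklisted regions and joined overlapping peaks of all libraries. Merging hides the library and height of a peak. The deposited columns gave start and end positions, and the deposited score was 0 in every row and was not used. No count, signal or comparison between groups could be taken from it.

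Positions were related to GENCODE M21 and the soft-masked RefSeq copy of GRCm38 through peak midpoints and printed counted from 1. Members were compared with near intergenic and remote intronic peaks by two-sided Fisher's exact tests with Benjamini-Hochberg adjustment over 28 tests. Densities have exact Poisson, shares Wilson and differences Newcombe intervals, all at 95%. Depth was unknown. Copies of 75-base windows were counted in the assembled chromosomes. Lower case in the reference was taken as repeat-masked, and repeat families were not named.

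The members, gene lists and motifs were chosen with earlier results of these data known. Genes were named for the 10 remotest and 5 widest members, the gaps with most members, clusters of 4 or more, members at the 50 kb limit and list genes nearest to a member. Others were named after their values were seen. The locus of 1 of the widest members is not reported here. The functions were tested on simulated data: Fisher's test called 200 of 200 planted and 12 of 200 unplanted differences, Poisson intervals covered 198 of 200 true rates, and 300 of 300 planted motifs were found. Scripts ran under Python 3.11.15, with pandas 2.3.3, scipy 1.17.1 and numpy 2.4.6. Alternatives covered TSS sets, limits, windows, clustering and chromosomes.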

Additional observations from a re-analysis of the deposited data

How the results depend on the processing

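Across 32 results and 178 alternatives, 141 left both the sign and the call as they were. The members numbered 134 over 100 kb, 562 over 25 kb and 522 at any width. The ratio of desert density to that of shorter gaps was 0.235 with deserts from 1 Mb and 0.264 for members over 100 kb.

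Against near intergenic peaks, with members over 100 kb, the difference for a distal neighbour was −15.9 points (exact test, adjusted p = 0.00133) and for repeat masking 7.78 (0.0288). With 1 peak per 50-kb cluster, repeat masking was 5.58 (0.0446), but without multi-copy peaks, chosen after seeing the data, it was 0.335 (adjusted exact p = 1). A neighbour within 50 kb gave −11.0 (0.00879), and any peak as neighbour −23.8 (6.04e-12), a value fixed by the rule, since no promoter peak can lie so near to a member. GC content without chromosome 1 was −7.90 (0.0545), a CpG ratio over 0.4 gave −7.74 (0.0351), masking of at least 25% −7.33 (0.0985), any multi-copy window −1.60 (0.912), and multi-copy windows of at least 50% 1.40 (0.0946). The STAT motif gave 4.15 in windows of 1000 bp (0.0326), 4.11 at 40 to 50% GC (0.0235) and, chosen after seeing the data, 3.19 without multi-copy peaks (0.0478) and 2.77 with looser letters (0.552).

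Motif differences that did not pass changed sign against near intergenic peaks: the octamer to 0.0975 points at 200 bp, 4.22 at 1000 bp and 0.444 at 40 to 50% GC, KLF to −3.09 at 1000 bp and −0.333 at 40 to 50% GC, SOX to −0.00645 at 200 bp and −0.222 at 40 to 50% GC, TEAD to 1.78 and CTCF to 0.468 at 1000 bp. Against remote intronic peaks, the octamer changed to 1.96 at 1000 bp, SOX to −0.786 at 200 bp and −0.361 at 1000 bp, and CTCF to −1.34 at 1000 bp. There, too, a distal neighbour changed to −1.36 for members over 100 kb and −0.808 within 5 kb, repeat masking to −0.859 in the central 400 bp, and the CpG ratio to 0.0954 with 1 peak per cluster and 5.31 over 0.4, while GC content of the central 400 bp gave 15.7 (exact test, adjusted p = 0.0446). The cause of these changes was not tested.

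No paired analysis was possible because the deposited peaks merged all libraries and carried no replicate. The lack of heights and of depth at each peak means that weak and strong peaks counted alike, and an absent peak does not show absent acetylation. Only 90 remote intronic peaks and 17 members beyond 500 kb limit the precision of comparisons that use them.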
